A study of Mus musculus with 8 samples.

Results

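The cytosolic ribosome of a mouse cell is built from ribosomal RNA and a fixed set of proteins, most of them encoded by genes named Rpl (large subunit) and Rps (small subunit). In the deposited gene table, 86 of 33495 rows carried such a name, counting the stalk proteins Rplp0, Rplp1 and Rplp2 and the small-subunit protein Rpsa, and leaving out rows named as pseudogenes and the Rps6k kinases. Of these, 84 rows held at least 100 reads summed over the 8 libraries and are described here: 51 of the large subunit and 33 of the small subunit, under 80 distinct symbols. Below that minimum were Rpl3l, the striated-muscle paralogue of Rpl3, with 11 reads in all, and Rpl39l, a paralogue of Rpl39, with 6 reads in all. All 84 passed the filter on low counts and were tested.

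The libraries were made from the outflow tract of the mouse heart, through which both ventricles empty into the great arteries. In the mutant group, of 4 libraries, Mef2c was knocked out conditionally in the anterior heart field, whose progenitors supply the outflow tract and the right ventricle. The wild-type group also had 4 libraries, and both groups were on the CD-1 background. Replicates 1 and 2 of each group were run on sequencing lane 1, and replicates 3 and 4 on lane 2. The sources used here give no Cre driver, stage, number of embryos per library or litter, and p-values therefore reflect only how these libraries vary, which may be technical.

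Ribosomal proteins are made in near-equal numbers, and their genes are known to be expressed together across tissues. Their mRNAs begin with a terminal oligopyrimidine (TOP) tract, a C followed by further pyrimidines at the cap, through which LARP1 and the mTOR kinase control their translation. Loss of a single ribosomal protein can stabilise p53 through free RPL5 and RPL11, and germline mutations in human RPS19 cause Diamond-Blackfan anaemia.

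Short, abundant and often retrocopied mRNAs limit how far reads can be assigned to one row. Of 84 members, 82 had a GENCODE M21 transcript under their identifier, and the median share of a member's stretches of 50 bases that another annotated gene also holds was 50%. For 41 of the 82 that share was above 50%. The name Rpl41 stood on 4 rows, on chromosomes 9, 10, 13 and 14, and the name Rps13 on 2 rows, on chromosomes 7 and 8. In GENCODE M21 Rps3a is listed as Rps3a1, a newer symbol of the same gene, and the identifiers of 8 other members carry the name of another gene or none: Rps13-ps1 and Rps13-ps2 for both Rps13 rows, Rps27rt for Rps27, Zbtb11 for Rpl24, Gm10076 and Gm10180 for the Rpl41 rows on chromosomes 14 and 9, and no entry for the other Rpl41 rows. These 8 rows held 6.80% of the members' reads, and values given for them are values of the rows. The reading frame of Rpl41, the smallest ribosomal protein, shows the problem, since its 78 bases (GENCODE M21, 5′ to 3′, with start and stop codons in capitals) are held exactly by 4 annotated genes:
Rpl41 row on chromosome 9: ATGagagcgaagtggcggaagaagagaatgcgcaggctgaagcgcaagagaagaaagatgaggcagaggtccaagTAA
The Rps13 rows on chromosomes 8 and 7 held 20206 and 20008 reads. Their transcripts differ at 2 of 453 bases, and that of the chromosome 8 row matches Rps13 itself at all 453, so reads of that row and of Rps13 could not be told apart there. Of the stretches of 50 bases in the chromosome 7 row, 87.9% are also held by other genes.

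Of the 76 members whose name and identifier pointed to the same gene, 56 were matched in RefSeq's promoter table (GRCm38.p6), with 67 promoters of 300 bases, 250 before and 50 after the annotated start. A run of 8 or more C or T within 30 bases of the start occurred in 52.2% of these promoters, against 22.9% of all 32851 promoters in the table. The windows below cover 20 bases on either side of the start, with such runs in capitals. They show members whose log2 fold changes, mutant over wild type, lay low (Rps18 -0.38, Rpl22l1 -0.35) and high (Rps6 0.04, Rps3a 0.12). Those of Rpl38 (-0.25) and Rpl26 (-0.28) lay nearer the members' median of -0.22.
Rps18 (chr17:33955646-33955685, minus strand): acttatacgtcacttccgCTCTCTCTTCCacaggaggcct
Rpl22l1 (chr3:28805488-28805527, plus strand): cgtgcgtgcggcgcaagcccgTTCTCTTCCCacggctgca
Rpl38 (chr11:114668560-114668599, plus strand): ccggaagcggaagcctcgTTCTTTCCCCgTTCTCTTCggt
Rpl26 (chr11:68901546-68901585, plus strand): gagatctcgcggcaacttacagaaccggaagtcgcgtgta
Rps6 (chr4:86857348-86857387, minus strand): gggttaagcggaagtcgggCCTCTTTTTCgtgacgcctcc
Rps3a (chr3:86142649-86142688, minus strand): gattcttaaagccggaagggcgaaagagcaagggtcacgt
The annotated start of Rpl26 and Rps3a held no run of that length in these windows. CGGAAG, the core bound by ETS-family factors, stood on either strand of 59.7% of the members' promoters and 16.9% of all promoters. GGGCGG, an SP1-type box, stood in 62.7% of the members' promoters and 35.7% of all, and GATGGC, the core bound by YY1, in 25.4% and 14.1%. None of the 67 held the MEF2 motif searched on both strands, which 3.19% of all promoters held. CGGAAG and its reverse complement are shown in capitals from 80 bases before to 20 after the start of Rps18, which had 3 copies, and of Rps3a, which had 1 on that stretch.
Rps18 (chr17:33955646-33955745, minus strand): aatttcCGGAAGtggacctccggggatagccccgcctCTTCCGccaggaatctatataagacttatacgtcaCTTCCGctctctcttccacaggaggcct
Rps3a (chr3:86142649-86142748, minus strand): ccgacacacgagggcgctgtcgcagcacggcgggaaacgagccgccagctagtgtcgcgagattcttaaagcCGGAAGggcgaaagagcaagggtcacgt
These matches describe letters and not bound sites.

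Total counts ran from 7697492 to 10006137 in mutant libraries and from 7138732 to 11012246 in wild-type libraries, so that 3 reads, the floor used for a gene not detected, were below 1 CPM (the usual depth-scaled count, here with TMM scaling) in each. Gene-level Mef2c stood at 120 to 154 CPM in mutant and 99.5 to 130.1 CPM in wild type (log2 fold change 0.32 ± 0.105 SE, adjusted p = 0.212, edgeR), and since this count also covers parts of the gene that were not deleted, it is no check of the labels. One library of each group, mutant 1 and wild-type 4, lacked reads of Y-linked genes. The 6 outflow tract cardiomyocyte markers summed to 11465 to 15460.0 CPM in mutant and 12213 to 17989 CPM in wild type, and 5 of the 6 had a log2 fold change below 0. Myl7 (765 ± 93.2 against 1494 ± 245 CPM, SD, n = 4 each, adjusted p = 0.0031, edgeR) and Myh7 (2804 ± 72.9 against 3898 ± 313 CPM, adjusted p = 0.0325, edgeR) were lower in mutant. The 4 endothelial markers summed to 459 to 612 CPM in mutant and 339 to 442 CPM in wild type, with Tek higher (170 ± 14.6 against 102 ± 6.50 CPM, adjusted p = 0.0013, edgeR). Over both lanes, markers of smooth muscle, neural crest, epicardium, erythroid cells, leukocytes, liver and neurons gave 0 calls by edgeR (1.5% of all tested genes). DESeq2 called 2 of them, Afp and Tcf21 (2.98% of all tested genes). By edgeR 6 had an unadjusted p under 0.05 (11.4% of all tested genes). These were 3 of 4 epicardial, 2 of 2 hepatic and 1 of 2 neuronal markers tested. Foxd3 of the neural crest list had 0 reads in all libraries. Fewer cells of a type and less RNA per cell cannot be told apart in bulk tissue.

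The members together took 2.47%, 2.20%, 2.68% and 2.98% of all counts in mutant libraries 1 to 4, against 3.06%, 3.20%, 2.49% and 2.50% in wild-type libraries 1 to 4. The groups overlapped: the lowest share was in mutant 2 and the highest in wild-type 2, but mutant 4 lay above wild-type 3 and wild-type 4. The mean share was 2.58% ± 0.331 in mutant and 2.81% ± 0.370 in wild-type libraries (SD, n = 4 each), a difference smaller than either SD. For each member, log2 CPM (prior count 2) was set against its own mean over the 8 libraries. The median of these values over the members was -0.16, -0.36, -0.03 and 0.14 in mutant 1 to 4, and 0.25, 0.38, -0.08 and -0.13 in wild type 1 to 4. In mutant 2 none of the 84 members stood above its own mean, and in wild-type 2 83 of 84 did. Large-subunit and small-subunit members were both lowest in mutant 2 and highest in wild-type 2, with medians of -0.31 and -0.41 in mutant 2 and of 0.36 and 0.40 in wild-type 2.

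**Figure D1:**
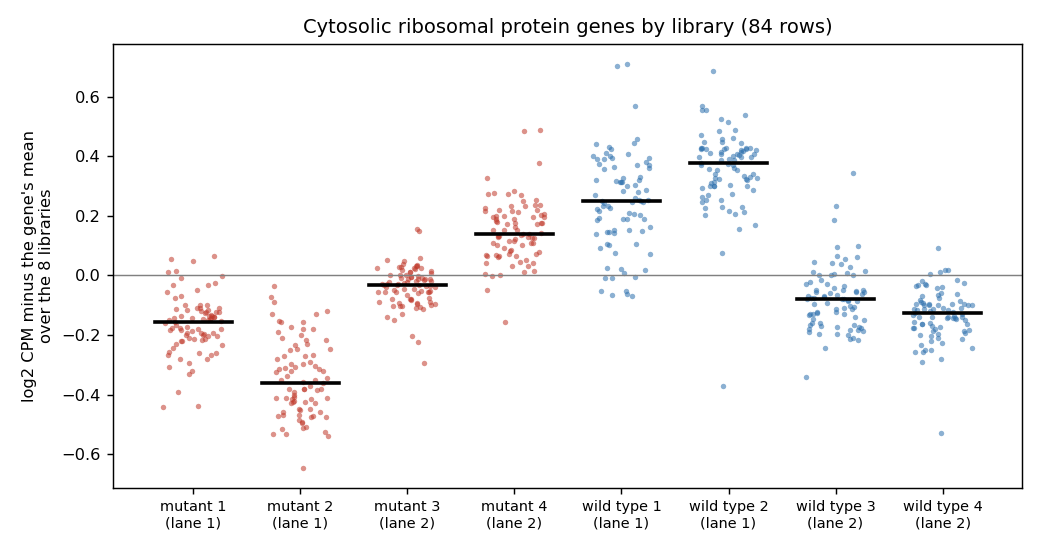
Each point is one of the 84 ribosomal protein rows in one library (mutant in red, wild type in blue). The vertical axis is log2 CPM minus that row's mean over the 8 libraries, and black bars are medians, which run from -0.36 in mutant 2 to 0.38 in wild-type 2. The groups are separated on lane 1 and lie close together on lane 2.

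Most of the members' variation was shared. The first principal component took 87.8% of their variance over the 8 libraries, against 29.8% for all tested genes. The median SD of a member's log2 CPM was 0.26, against 0.15 over the 3406 tested genes with a mean log2 CPM above 6. After the members' median in each library was subtracted, the median SD of a member was 0.09, and Rps25 had the lowest, 0.03.

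Over both lanes the mutant libraries showed no called change in any ribosomal protein gene. With edgeR (quasi-likelihood, Benjamini-Hochberg over 14757 genes) 0 of 84 members passed 0.05, where 1.5% of all tested genes did (0.562% higher and 0.942% lower), and DESeq2 also called 0 (2.98% of all tested genes). At an unadjusted p under 0.05 there were 5 members by edgeR, against 11.4% of all tested genes, and 8 members by DESeq2, against 11.2%. The 5, named after their values were seen, were 3 Rpl41 rows, the Rps27 row and Rpl37a, so 4 of them are among the 8 rows to which GENCODE M21 gives another gene's name or none. The log2 fold change, mutant over wild type (log2 ratio), was below 0 for 77 of 84 members, against 51.3% of all tested genes, and its median was -0.22, against -0.01 for all tested genes. It ran from -0.42 to 0.12. Without wild-type 2, the library with the highest levels, the median was -0.12, and it was -0.14 without mutant 2, -0.30 without mutant 4 and -0.16 without wild-type 1.

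The 5 lowest fold changes were those of Rplp1, the Rpl41 row on chromosome 10, Rpl39, Rps18 and the Rps13 row on chromosome 8. Rplp1, an acidic protein of the stalk that recruits elongation factors (chromosome 9, 61761091 to 61762345, minus strand, mm9), stood at 268, 222, 301 and 351 CPM in mutant 1 to 4 and at 426, 519, 281 and 301 CPM in wild-type 1 to 4. Both lane 1 mutant libraries lay below both lane 1 wild-type libraries, while on lane 2 mutant 4 exceeded both. Its log2 fold change was -0.42 ± 0.202 (SE, adjusted p = 0.485, edgeR). Rpl39, a protein at the exit of the nascent-chain tunnel, stood at 240.0, 210, 273 and 307 CPM in mutant and at 428, 425, 261 and 241 CPM in wild type, a log2 ratio of -0.40 ± 0.201 (adjusted p = 0.516, edgeR). Here too mutant 3 and mutant 4 lay above wild-type 3 and wild-type 4, and the groups overlapped.

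Rps18, a protein of the small-subunit head, stood at 145, 126, 169 and 276 CPM in mutant 1 to 4, against 322, 236, 166 and 210 CPM in wild type 1 to 4. Its log2 fold change of -0.38 ± 0.273 (adjusted p = 0.674, edgeR) had the widest range among the named members when single libraries were left out, from -0.67 without mutant 4 to -0.19 without wild-type 1. The Rps13 row on chromosome 8 had a log2 ratio of -0.37 ± 0.181 (adjusted p = 0.487, edgeR), from 202 to 320.1 CPM in mutant and 256 to 417 CPM in wild type.

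The Rpl41 row on chromosome 10 was the only member whose groups did not overlap, against 6.72% of all tested genes. It had 7.11, 8.26, 9.03 and 8.39 CPM in mutant and 9.55, 12.5, 11.97 and 9.43 CPM in wild type, a log2 ratio of -0.40 ± 0.170 (adjusted p = 0.394, edgeR). With 655 reads in all it was the member with the fewest. The Rpl41 rows on chromosomes 14, 13 and 9 had log2 fold changes of -0.32, -0.32 and -0.24. Per kilobase of summed exon length, the Rpl41 row on chromosome 14 held most of all members, 1418 CPM per kilobase on average, followed by the Rps27 row with 1170.4 and Rps23 with 1117.

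At the other end, 7 members lay above 0, and the 5 highest follow. Rps3a, a small-subunit protein (chromosome 3, 85941868 to 85946517, minus strand, mm9), stood at 505, 454, 536 and 529 CPM in mutant and 555, 373, 457 and 477 CPM in wild type, a log2 ratio of 0.12 ± 0.121 (adjusted p = 0.782, edgeR). Its lowest value was in wild-type 2, the library with the highest median of all members. Rpl7l1, a paralogue of Rpl7, had 21.3 ± 3.49 CPM in mutant and 20.4 ± 1.27 CPM in wild-type libraries (SD, n = 4 each, log2 fold change 0.06). Rpl3, a core protein near the peptidyl transferase centre, had 544 ± 54.2 against 521 ± 69.2 CPM (0.06), Rps6, the main target of the S6 kinases, had 543 ± 38.4 against 528 ± 65.6 CPM (0.04), and Rpl4, which lines the exit tunnel, had 936 ± 98.4 against 919 ± 104 CPM (0.03).

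The lanes gave opposite directions. On lane 1, with mutant 1 and 2 against wild-type 1 and 2, 83 of 84 members lay below 0 (49.9% of all genes tested there), with a median log2 fold change of -0.59. Of the members 52 were called lower and 0 higher by edgeR, where 5.63% of all genes tested were called, 4.05% lower and 1.58% higher. On lane 2, with mutant 3 and 4 against wild-type 3 and 4, 81 of 84 lay above 0 (50.5% of all genes tested lay below), with a median of 0.16 and 0 called by edgeR (0.786% of all genes tested), with 0 at an unadjusted p under 0.05 (9.32% of all genes tested). DESeq2 was not run within lanes. The sign differed between lanes for 80 members, and Rps3a alone was above 0 on both.

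**Figure D2:**
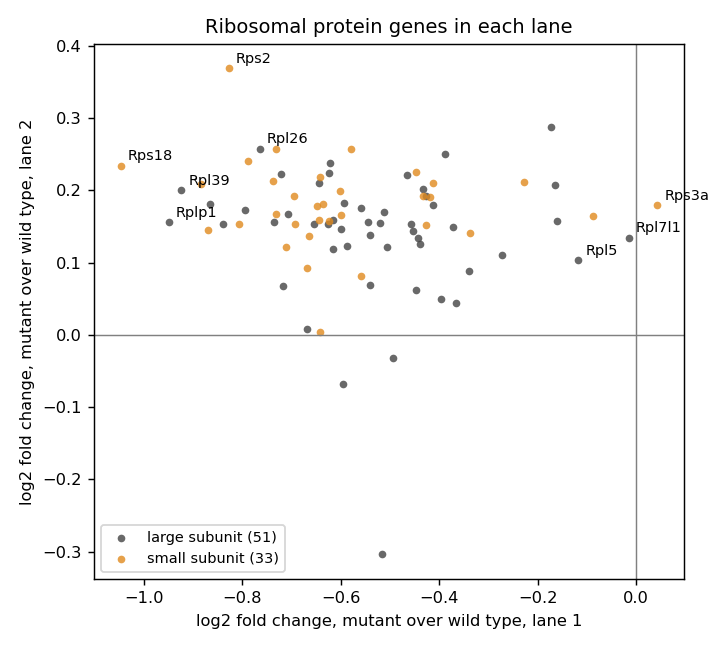
Each point is one ribosomal protein row, with the log2 fold change of mutant over wild type from lane 1 on the horizontal axis and from lane 2 on the vertical axis, large-subunit rows in grey and small-subunit rows in orange. Apart from Rps3a and 3 Rpl41 rows, the points lie in the quadrant below 0 on lane 1 and above 0 on lane 2.

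The test of the difference between lanes gave a log2 difference, lane 2 minus lane 1, that was above 0 for all 84 members, with a median of 0.73. For 75 of 84 the unadjusted p was under 0.05, against 16.6% of all tested genes, but after adjustment 0 members passed by edgeR (0.00678% of all tested genes), the smallest adjusted p being 0.0501. The count of adjusted calls sat on that edge. It was 66 with no filter on low counts (1145 of all 24606 genes tested). When the members were kept out of the TMM scaling it was 7 (39 of all 14757). Without mutant 3 it was 43 (512 of all 14859) and without wild-type 1 it was 21 (241 of all 14863). In those last fits a group kept a single library on a lane. Limma-voom and limma-trend called 0 members and 0 genes of all 14757. Each group has 2 libraries a lane, so a lane effect and a difference between the samples on each lane cannot be told apart.

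The lane 1 count rests on its libraries. Without mutant 2, the lowest library, 5 members were called lower on lane 1 (1.27% of all genes tested), Rpl39, Rplp1, Rps18, Rpl26 and the Rps13 row on chromosome 7, the last named after its values were seen. Without mutant 1 there were 42 (4.56%), without wild-type 2 there were 56 (9.9%), and without wild-type 1 there were 76 lower and 1 higher, Rps3a (17.2%). In those fits the lone library of a group is assumed to vary like the pair of the other group. The median on lane 1 stayed between -0.69 and -0.49 in these 4 fits. On lane 2 it ran from 0.08 without mutant 4 to 0.27 without mutant 3, the only one of the lane 2 fits with calls, 3 higher (4.16% of all genes tested), which were Rps18, Rpl26 and Rps2. The others called 0 members, without mutant 4 (1.68% of all genes tested, 0 members at an unadjusted p under 0.05), wild-type 3 (1.61%, 0 members) or wild-type 4 (1.37%, 1 member, Rps2).

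Within lane 1 the largest fall was that of Rps18, by 1.05 on the log2 scale (adjusted p = 0.00758, edgeR), and its lane 2 log2 ratio was 0.23 (adjusted p = 0.905, edgeR). Rplp1 fell by 0.95 ± 0.146 (SE, adjusted p = 0.00653, edgeR) and Rpl39 by 0.92 ± 0.125 (adjusted p = 0.00402, edgeR) on lane 1. On lane 2 they had log2 fold changes of 0.16 and 0.20 that did not pass. Rps2, a protein of the mRNA entry channel that was chosen after its values were seen, fell by 0.83 on lane 1 (adjusted p = 0.00653, edgeR) and had the highest log2 fold change of all members on lane 2, 0.37 (adjusted p = 0.69, edgeR).

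The stalk proteins did not share one value. Rplp2, the partner of Rplp1, had 262 ± 43.9 CPM in mutant and 322 ± 69.6 CPM in wild-type libraries (SD, n = 4 each), a log2 ratio of -0.30 (adjusted p = 0.540, edgeR), and fell by 0.74 on lane 1 (adjusted p = 0.0119, edgeR). Rplp0, the larger protein that anchors both to the ribosome, had 325 ± 59.4 against 339 ± 44.5 CPM, a log2 ratio of -0.06. On lane 1 its log2 fold change was -0.39 (adjusted p = 0.140, edgeR), and on lane 2 it was 0.25.

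Of the paralogues, Rpl22l1 and Rps27l lay low in the members' range. Rpl22, an RNA-binding protein of the large subunit, and its paralogue Rpl22l1 had log2 fold changes of -0.16 and -0.35. Rpl22 stood at 162 ± 14.8 CPM in mutant and 180 ± 25.4 CPM in wild type, and Rpl22l1 at 80.2 ± 17.1 and 102 ± 22.7 CPM (SD, n = 4 each). On lane 1 Rpl22l1 fell by 0.84 (adjusted p = 0.0063, edgeR), while Rpl22 had a log2 ratio of -0.37 that did not pass (adjusted p = 0.148, edgeR), and the difference between them was not tested. Rps27l, a paralogue of Rps27 induced by p53, had 51.9 ± 7.61 against 65.9 ± 16.7 CPM, a log2 ratio of -0.35, next to -0.32 for the Rps27 row. Rpl7 and Rpl7l1 had log2 fold changes of -0.12 and 0.06, and Rps4x, encoded on the X chromosome, had -0.12. Rpl10, a late-joining protein of the large subunit, had 856 ± 126 against 980 ± 152 CPM, a log2 ratio of -0.19. The muscle paralogue Rpl3l had 1, 0, 1 and 0 reads in mutant and 7, 0, 0 and 2 reads in wild type, and Rpl39l had 0, 0, 3 and 1 reads in mutant and 0, 1, 0 and 1 in wild type, so neither allows a comparison at this depth.

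Further members known for roles beyond the ribosome ran from -0.29 (Rps19) to 0.00 (Rps3) in log2 fold change. Rpl5 and Rpl11, which bind the ribosome's smallest RNA and, when free, the p53 ligase MDM2, had log2 fold changes of -0.01 (868 ± 19.3 against 871 ± 112 CPM) and -0.08 (303 ± 22.6 against 320.0 ± 35.9 CPM). Rps19 had 146 ± 29.8 CPM in mutant and 178 ± 28.6 CPM in wild type, a log2 ratio of -0.29 (adjusted p = 0.528, edgeR), and fell by 0.71 on lane 1 (adjusted p = 0.0096, edgeR). Rpl38, which in mouse embryos is needed for axial patterning and the translation of Hox mRNAs, had 145 ± 24.5 against 173 ± 32.1 CPM, a log2 ratio of -0.25, and fell by 0.66 on lane 1 (adjusted p = 0.0144, edgeR). Rps27a, made as a fusion with ubiquitin, had -0.27, and Rps23, a protein of the decoding centre, had -0.24. Rpsa, also known as a laminin receptor, had -0.08 and Rps3, of the mRNA entry channel, had 0.00, with 413 ± 55.6 against 412 ± 40.6 CPM.

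Over both lanes and on lane 1, but not on lane 2, the fold change followed the length of the coding sequence. Coding length was known for 77 members, from 153 bases (Rpl39) to 1257 bases (Rpl4). Across these members its Spearman correlation with the log2 fold change was 0.67 over both lanes, 0.63 on lane 1 and 0.00 on lane 2, given as a description across genes that share libraries and are not independent. Across the other tested genes it was 0.13, 0.25 and -0.16. On lane 1, where 4.05% of all genes tested were called lower, 22 of 25 members with under 400 coding bases were (median -0.66), 24 of 37 with 400 to under 700 bases (median -0.59), and 1 of 15 with 700 or more (median -0.34). That 1 member was Rps2. On lane 1, the 1480 other tested genes with under 600 coding bases had a median of -0.21, with 150 called lower. Among these, the 314 with a mean log2 CPM above 6 had a median of -0.19, with 66 called lower. The 5824 other tested genes with 1500 or more coding bases had a median of 0.09 on lane 1, with 115 called lower. Between a member's mean log2 CPM and its log2 fold change the Spearman correlation was 0.43 over both lanes, 0.45 on lane 1 and -0.10 on lane 2. The part of length or level in the members' fold changes was not tested.

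**Figure D3:**
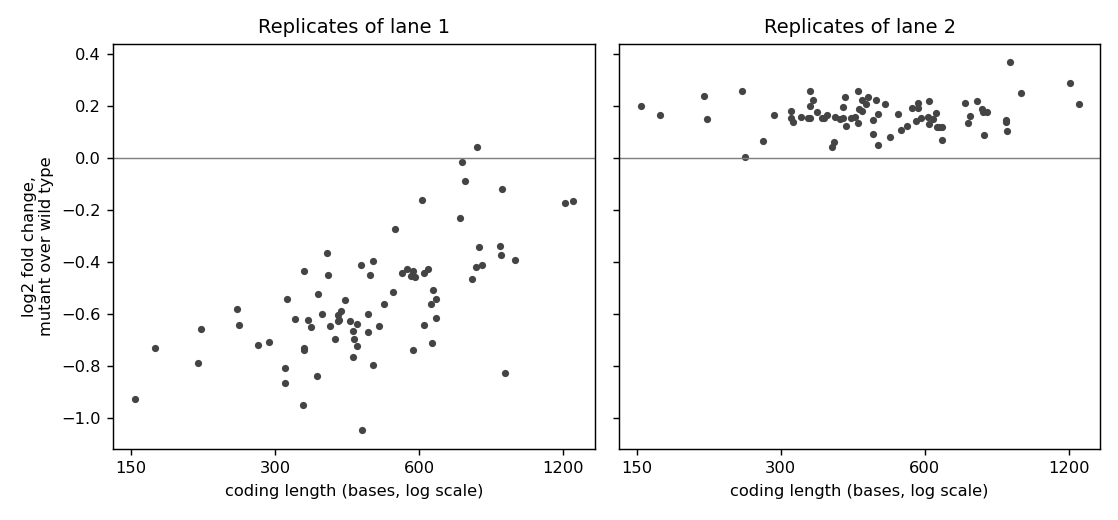
Each point is one of 77 ribosomal protein rows, with coding length in bases on a log axis and the log2 fold change of mutant over wild type on the vertical axis, from lane 1 on the left and lane 2 on the right. On lane 1 members with short coding sequences lie lowest, and on lane 2 no such slope is seen (Spearman 0.63 and 0.00).

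A few members departed from the common pattern. Rps3a, Rpl26 and Rps18 had the largest SD over libraries after the members' median was subtracted, 0.32, 0.31 and 0.30. Rps3a lay 0.27 above the members' median in mutant 2 and 0.75 below it in wild-type 2. Rps18 lay 0.28 below the median in both mutant 1 and mutant 2, 0.35 above it in mutant 4 and 0.46 above it in wild-type 1. Rpl26, which in human cells binds p53 mRNA and was chosen after its values were seen, lay 0.24 above it in mutant 4, 0.46 above it in wild-type 1 and 0.40 below it in wild-type 4. Its level was 101, 125, 111 and 178 CPM in mutant and 223, 159, 146 and 94.7 CPM in wild type. Rps2 lay 0.34 above the median in mutant 4 and 0.26 below it in wild-type 3. Of the transcripts' stretches of 50 bases, 71.0% in Rps3a, 71.3% in Rpl26 and 86.7% in Rps18 are also held by other genes, and the part of such copies in these departures was not tested.

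**Figure D4:**
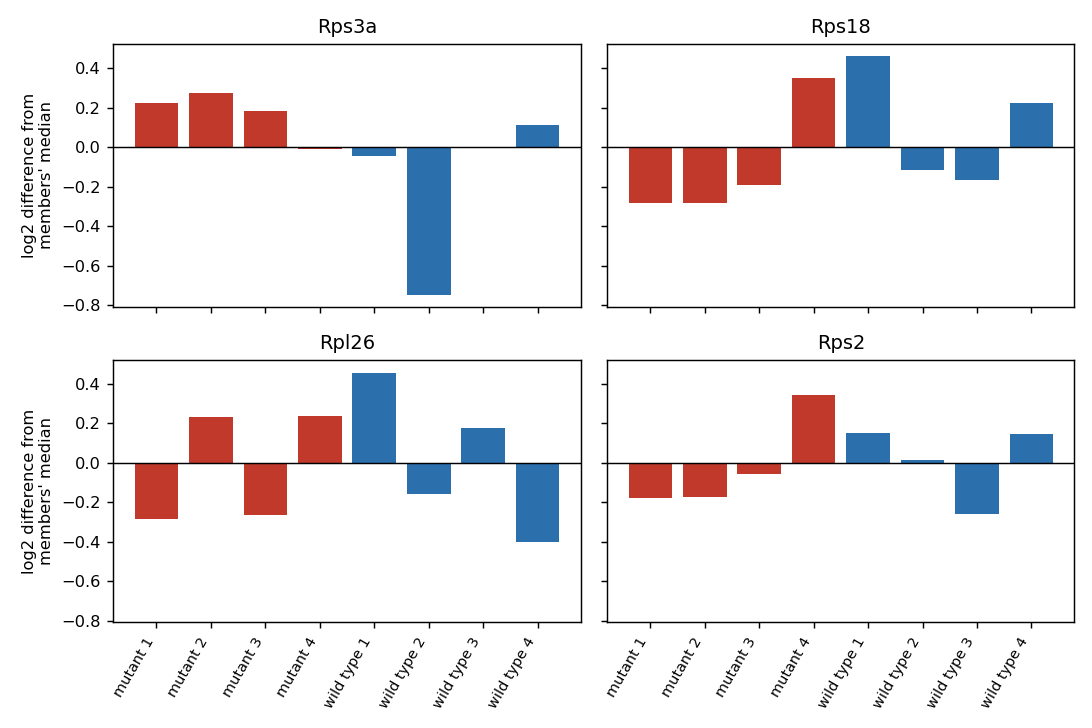
Bars give, for Rps3a, Rps18, Rpl26 and Rps2 in each library (mutant in red, wild type in blue), the member's centred log2 CPM minus the median of all 84 members there. The largest bar is that of Rps3a in wild-type 2, at -0.75, and Rps18 and Rpl26 both lie high in mutant 4 and wild-type 1.

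The listed genes of the translation machinery, its regulators and the proteasome gave 0 calls among 223 genes over both lanes by edgeR (1.5% of all tested genes). Of these 13 had an unadjusted p under 0.05 (11.4% of all tested genes), 9 of them among the 75 mitochondrial ribosomal proteins tested. DESeq2 called 3 (2.98% of all tested genes), Cdkn1a, Snhg11 and Vim, named after their values were seen. Of the ribosome components named otherwise, 4 were tested, with a median of -0.21 over both lanes and -0.55 on lane 1. Fau, a ubiquitin-like fusion with a ribosomal protein, had a log2 fold change of -0.27 over both lanes, and Gnb2l1, which encodes the scaffold RACK1, had -0.14. On lane 1, where 4.05% of all genes tested were called lower, 2 of these 4 were, Fau among them with a log2 ratio of -0.68 (edgeR, adjusted p = 0.0125). Rows named as ribosomal protein pseudogenes, 93 tested, had a median of -0.16 over both lanes and -0.46 on lane 1, with 14 called lower there, and held 0.33% to 0.41% of counts in mutant and 0.33% to 0.50% in wild type. The 75 mitochondrial ribosomal proteins had medians of -0.19 over both lanes, -0.43 on lane 1 with 12 called lower, and 0.06 on lane 2. Mrpl18, the one with most reads, stood at 81.3 ± 9.61 CPM in mutant and 88.7 ± 18.7 CPM in wild type. Nuclear genes of oxidative phosphorylation, a list added after the values were seen, had 82 tested, all below 0 over both lanes. Their median was -0.29 over both lanes, against -0.22 for the members, and 29 had an unadjusted p under 0.05 by edgeR. On lane 1 it was -0.64, against -0.59 for the members, with 50 called lower there. On lane 2 it was 0.06, against 0.16 for the members.

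Over both lanes and on lane 1, genes that make or regulate ribosomes lay closer to 0 than the members. On lane 2 the members' median was 0.16. There it was 0.12 for assembly genes, 0.11 for the proteasome, 0.10 for other TOP mRNAs and 0.09 for the listed chaperones. The lane 2 median was -0.01 for RNA polymerase I genes, -0.05 for TOP regulators, -0.09 for the MYC family and -0.02 for nucleolar stress genes. For the calls on lane 1 below, edgeR called 4.05% of all genes tested there lower and 1.58% higher. The 13 genes of RNA polymerase I and its factors had medians of -0.10 over both lanes and -0.15 on lane 1. Of them 0 were called on lane 1 by edgeR, and 2 had an unadjusted p under 0.05, for which no share over all genes is given. Rrn3, the initiation factor with most reads, stood at 145 ± 9.89 CPM in mutant and 136 ± 9.83 CPM in wild type. The 41 genes of ribosome processing and assembly had medians of 0.00 and -0.13, with 1 called lower on lane 1, Nop10, of the pseudouridylation complex. Npm1, the nucleolar chaperone with most reads, stood at 1312 ± 33.1 CPM in mutant and 1427 ± 377 CPM in wild type. Of 18 other mRNAs of the TOP class the median was -0.05 over both lanes and -0.18 on lane 1, where Naca and Btf3, the subunits of the nascent-chain complex, were called lower. Eef1a1, the elongation factor that held most reads, stood at 2711 ± 191 CPM in mutant and 2716 ± 209 CPM in wild type. Both Naca and Btf3 are also among the 5 chaperones listed, whose medians were -0.12 and -0.29.

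The 18 regulators of the TOP class, mTOR and LARP1 among them, had medians of -0.01 over both lanes and -0.05 on lane 1. On lane 1, where 4.05% of all genes tested were called lower, 1 of them was, Eif4ebp1, an inhibitor of cap-dependent translation. Cnbp, with most reads, stood at 464 ± 17.5 CPM in mutant and 465 ± 83.5 CPM in wild type. The 5 MYC-family genes had a median of 0.01, with Mga highest in reads. The 9 genes of nucleolar stress, p53 and its targets, had a median of -0.01, with Ccng1 at 192 ± 12.3 CPM in mutant and 204 ± 29.9 CPM in wild type. Of these 9, edgeR called 0 (1.5% of all tested genes), with 1 at an unadjusted p under 0.05 (11.4%). DESeq2 called 1 of them, Cdkn1a (2.98% of all tested genes). Of 10 snoRNA host genes only 2 were tested, which is too few to describe as a group. The 36 proteasome genes, a complex outside translation, had medians of -0.01 over both lanes and -0.13 on lane 1. Of these 1 was called lower on lane 1, Psmb3 (4.05% of all genes tested).

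**Figure D5:**
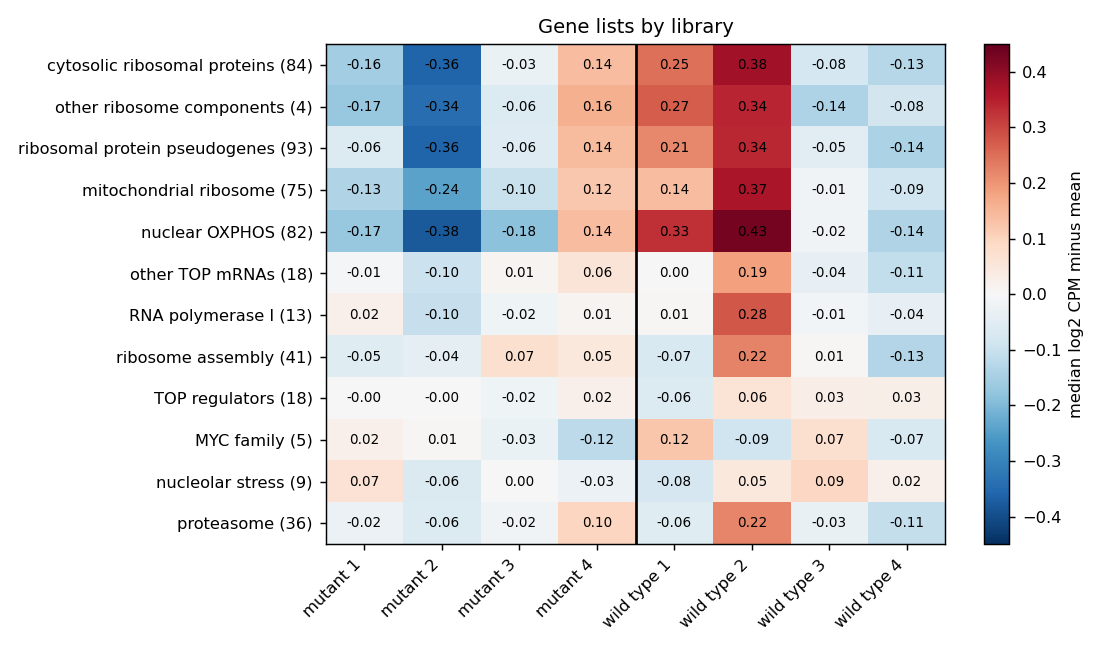
Each cell gives the median, over the tested genes of a list (number in brackets), of log2 CPM minus the gene's mean over the 8 libraries, with mutant libraries left of the black line and wild-type libraries right of it. Ribosomal protein genes, other ribosome components, pseudogene rows, the mitochondrial ribosome and nuclear oxidative phosphorylation genes (OXPHOS) share low values in mutant 2 and high values in wild-type 2. The RNA polymerase I, ribosome assembly, other TOP mRNA and proteasome medians are also highest in wild-type 2, at 0.28, 0.22, 0.19 and 0.22. The TOP regulator, MYC and nucleolar stress medians run from -0.12 to 0.12.

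Cell type markers and mitochondrial RNA also varied between libraries. The endothelial markers had their highest median in mutant 2, 0.44, and their lowest in wild-type 1, -0.39, opposite to the members in both libraries. The cardiomyocyte markers had medians of -0.25 to -0.10 in mutant and 0.08 to 0.39 in wild type, lowest and highest in the same libraries as the members. Their median log2 fold change was -0.51 on lane 1 and -0.12 on lane 2, where that of the members was above 0. On lane 1 edgeR called 3 of the 6 lower and 1 higher (4.05% and 1.58% of all genes tested). The 7 erythroid markers summed to 1488 to 8177 CPM in mutant and 3173 to 12283 CPM in wild type. Their median was lowest in mutant 2, -1.54, and highest in wild-type 3, 1.46. The 4 epicardial markers had a median log2 fold change of 0.08 on lane 1 and 1.00 on lane 2. On lane 2 edgeR called 2 of these 4 higher, where 0.786% of all genes tested were called. Mitochondrially encoded genes took 5.19% to 6.12% of counts in mutant and 6.46% to 7.25% in wild type. Among mutant libraries their share ran in the opposite order to the members' median, highest in mutant 2 and lowest in mutant 4. Among wild-type libraries it was highest in wild-type 3 and lowest in wild-type 4, where the members were lowest too. The median log2 fold change of the 38 mitochondrially encoded genes was -0.49 on lane 1 and, over 37 of them, -0.46 on lane 2. Without them in the total, the members' mean share was 2.73% in mutant and 3.02% in wild type. The part of cell composition or of mitochondrial RNA in the members' differences was not tested.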

How the data were processed

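The authors deposited whole-number counts for every gene in each of the 8 libraries, from reads aligned with TopHat2 2.0.4 to mm9, per the submitters' processing notes. Per the file headers, the authors also made normalized log2 values, which served as an alternative. How reads were counted, with what use of strand and of multiple mapping, is not given in these sources. Sample columns left unmapped numbered 0. Some genes are not reported here.

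Genes kept by filterByExpr were scaled by TMM and tested, two-sided, with edgeR 4.0.16 in R 4.3.3 (quasi-likelihood, robust), group as the only term, Benjamini-Hochberg over all 14757, threshold 0.05. The standard error was the log2 fold change divided by the square root of F. Lanes were also fitted alone and in a group by lane model. The members and lists were chosen with earlier results of these data known. Named were members past the threshold, the 5 highest and 5 lowest fold changes, the 3 with most CPM per kilobase, paralogue pairs, stalk proteins, Rpsa and members with further roles, 28 in all, and of each list called members and the one with most reads. Floors cover counting error only, since reads carried no molecular identifiers.

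Replicates differed beyond sampling noise (chi-square per degree of freedom 5.77 to 20.67). On simulated data for mutant against wild type over 14757 genes, 32% of genes changed 1.5-fold, 82% changed 2-fold, 90% changed 4-fold and 92% changed 8-fold were recovered, and 20 of 168 calls were false. DESeq2 1.42.0, limma 3.58.1, Python 3.11.15, pandas 2.3.3, scipy 1.17.1 and matplotlib 3.10.9 were also used.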

Additional observations from a re-analysis of the deposited data

Results flagged for a closer look

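Among the named members, 58 sets of 4 libraries were searched for a library far from the others of its group, a rule that flags about 5% of sets by chance, and 2 were found. Both were in wild-type 2, the library with the highest level of most members. Rpsa had a log2 CPM of 9.04 there, against 8.78 to 8.82 in the other wild-type libraries, and Rps3 had 8.88, against 8.58 to 8.63.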

How the results depend on the processing

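No alternative over both lanes called a member, whatever the scaling, filter, test, covariate or library left out. The members' median log2 fold change ran from -0.30 to -0.12 over the fits that left out 1 library. It was -0.59 on lane 1 and 0.16 on lane 2. Calls over all genes numbered 440 with DESeq2, 836 on lane 1, 119 on lane 2, 95 with the libraries lacking Y-linked reads left out, 296 without wild-type 2 and mutant 4, and 110 to 231 with 1 library left out. Replicate numbers did not pair the samples (correlation of same-numbered deviations -0.29 to 0.22), and with a replicate block all-gene calls numbered 76, with 0 members called. Members called numbered 52 on lane 1. Leaving out 1 library within a lane, chosen after seeing the data, gave 42, 5, 77 and 56 calls on lane 1, with medians of -0.69, -0.49, -0.64 and -0.51 (mutant 1, mutant 2, wild-type 1, wild-type 2), and 3 on lane 2 without mutant 3. Medians there were 0.27, 0.078, 0.20 and 0.14 (mutant 3, mutant 4, wild-type 3, wild-type 4). Members called for group by lane numbered 0 to 43 with 1 library left out, where calls over all genes numbered 0 to 512. They numbered 7 with members kept out of the scaling (39 over all genes) and 66 with no filter (1145 over all genes). The share of counts kept its direction under all 10 alternatives run, none of which was lane 2 alone. On lane 2 that direction was reversed, at 2.68% and 2.98% in mutant 3 and 4, against 2.49% and 2.50% in wild-type 3 and 4.

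Single members that changed sign are given with their log2 fold changes, which on lane 2 reached 0.26. Rps3 was at -0.0037 with RLE scaling, -0.0035 with DESeq2, -0.0040 with voom, -0.0039 with limma-trend, -0.0027 with the replicate block, -0.0034 with lane as a covariate, -0.23 on lane 1, -0.0039 with the libraries lacking Y-linked reads left out and -0.011 without wild-type 2 and mutant 4. Rpl5 was at 0.049 with library size alone, 0.0044 with no filter, 0.0035 with voom, 0.0036 with the block, 0.0025 with limma-trend and 0.055 without wild-type 2 and mutant 4. On lane 1, Rpl4 was at -0.16, Rps6 at -0.088, Rpl3 at -0.17 and Rpl7l1 at -0.015. With the libraries lacking Y-linked reads left out, Rpl4 was at -0.0024 and Rps6 at -0.040, and Rpl7l1 was at -0.013 without wild-type 2 and mutant 4. On lane 2, 22 named members changed sign, at 0.16 for Rplp1, 0.20 for Rpl39, 0.23 for Rps18, 0.15 for Rps13 (chromosome 8), 0.0088 for Rpl41 (chromosome 14), 0.0039 for Rps27, 0.16 for Rps23, 0.15 for Rpl22l1, Rps27l and Rpl38, 0.16 for Rplp2, 0.12 for Rps19 and Rpl10, 0.093 for Rps27a, 0.044 for Rpl22, 0.19 for Rps4x, 0.18 for Rpl7, 0.11 for Rpl11, 0.14 for Rpsa, 0.25 for Rplp0, 0.10 for Rpl5 and 0.26 for Rpl26. With 1 library left out, Rps3 ran from -0.083 to 0.069, Rpl5 from -0.082 to 0.063, Rplp0 from -0.17 to 0.038, Rpl4 from -0.046 to 0.10, Rps6 from -0.030 to 0.11 and Rpl7l1 from -0.048 to 0.13. The cause was not tested.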
